A study of Homo sapiens with 6 samples.

Results

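The genes of the PI3K, AKT and mTORC1 pathway were examined by RNA-Seq in MOLM14 cells, with or without the FLT3 inhibitor HSN748. The pathway was taken as 45 named genes, which were looked up by symbol among the 13244 genes of the deposited table. These members were chosen with earlier results of these data known. All 45 were found, and all 45 were among the 13084 genes that passed the filter on low counts. They comprise 12 kinases, 10 subunits or activators, 8 inhibitors and 15 genes of the amino acid sensing branch.

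MOLM14 is an established human acute myeloid leukemia (AML) line that carries the internal tandem duplication of FLT3, and the cells of both groups carry it. The control group was 3 cultures given the solvent DMSO (replicates 1, 2 and 3), and the treated group was 3 cultures given 2 nM HSN748 (replicates 7, 8 and 9), all for 24 hours. The study describes the triplicates as biologically independent. A single cell line, dose and time point were available, which limits the values to that setting.

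Growth factor receptors such as FLT3 recruit class I PI3K, which makes the membrane lipid that brings PDK1 and AKT together. AKT holds back the TSC complex, so that RHEB can switch on mTORC1, and mTORC1 then phosphorylates S6 kinases and the translation repressors of the EIF4EBP family. Amino acids feed in separately at the lysosome, where Rag GTPases held by the Ragulator complex bring mTORC1 to RHEB, GATOR1 opposes the Rags and the folliculin complex favors their active state.

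The libraries held 35277785 to 59279430 counts over the listed genes, and no member had fewer than 36 counts in any culture. Values are given as CPM, which are counts relative to library size scaled by the trimmed mean of M values (TMM), and levels of different genes are compared only as FPKM, which also divides by gene length. Of 8 myeloid markers chosen for the line, all 8 were measured, and of 9 markers of other lineages 2 were measured, PECAM1 and COL1A1. These markers moved with treatment: 6 of the 8 myeloid markers rose, CSF1R by 4.37 and FLT3 by 1.54 on the log2 scale among them, MPO fell by 2.26 and CD33 did not pass. PECAM1, which is also found on myeloid cells, was at 209 to 212 CPM with DMSO and 587 to 654 with HSN748, and COL1A1 at 0.142 to 0.386 and 1.57 to 1.61. The part of these marker changes in the pathway results was not tested. The difference between groups is given as the log2 fold change (HSN748 against DMSO) ± its standard error (SE) and was tested with edgeR's quasi-likelihood test and Benjamini-Hochberg adjustment over all genes tested. In bulk RNA a gene measured lower in all cells and a gene measured in fewer cells cannot be told apart.

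Gene length moved with the DMSO cultures. Over the 45 members the log2 ratio of DMSO replicate 3 to DMSO replicate 2 had a Pearson correlation of -0.72 with log2 gene length, against -0.30 over all genes tested. Replicate 3 was the highest DMSO culture for 24 members and the lowest for 16. The log2 fold changes of the members had a correlation of 0.32 with log2 length, and those of all genes 0.06. These are descriptions across genes, which are not independent replicates, and the part of gene length in any single difference was not tested beyond the length-corrected fit given where it changed a call.

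The position of zero depended on the scaling. The median of all genes tested was 0.01 under TMM, 0.13 with total counts, 0.21 with upper-quartile factors and 0.48 when 11 commonly used reference genes were held constant, of which 6 fell and 1 rose under TMM. Each direction given here is therefore relative to the TMM zero, and the called members that turned or lost the call with the reference genes are given with that value. With upper-quartile factors the calls of AKT2 (-0.17), RPTOR (-0.24), RHEB (-0.14), EIF4EBP2 (-0.10), DEPDC5 (-0.06), GSK3A (-0.14) and TBC1D7 (-0.47) were lost as well.

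Of the 45 members, 11 rose, 16 fell and 18 did not pass an adjusted p of 0.05. Over all genes tested the same test called 73.1% of genes, 36.6% higher and 36.5% lower, beside 27 of 45 members. The split of members into higher and lower moved with the scaling, to 15 and 14 with total counts, 18 and 9 with upper-quartile factors and 26 and 4 with the reference genes. After a correction for gene length, added after seeing the data, it was 10 and 22. Beyond a log2 fold change of 1 in either direction there were 2 members higher, PIK3R5 and RRAGD, and 1 lower, EIF4EBP1, where 17.0% and 14.9% of all genes lay. The median of the members was -0.10, against 0.01 for all genes. In 30 members the 3 HSN748 cultures lay wholly above or below the 3 DMSO cultures, which held for 75.4% of all genes.

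**Figure D1:**
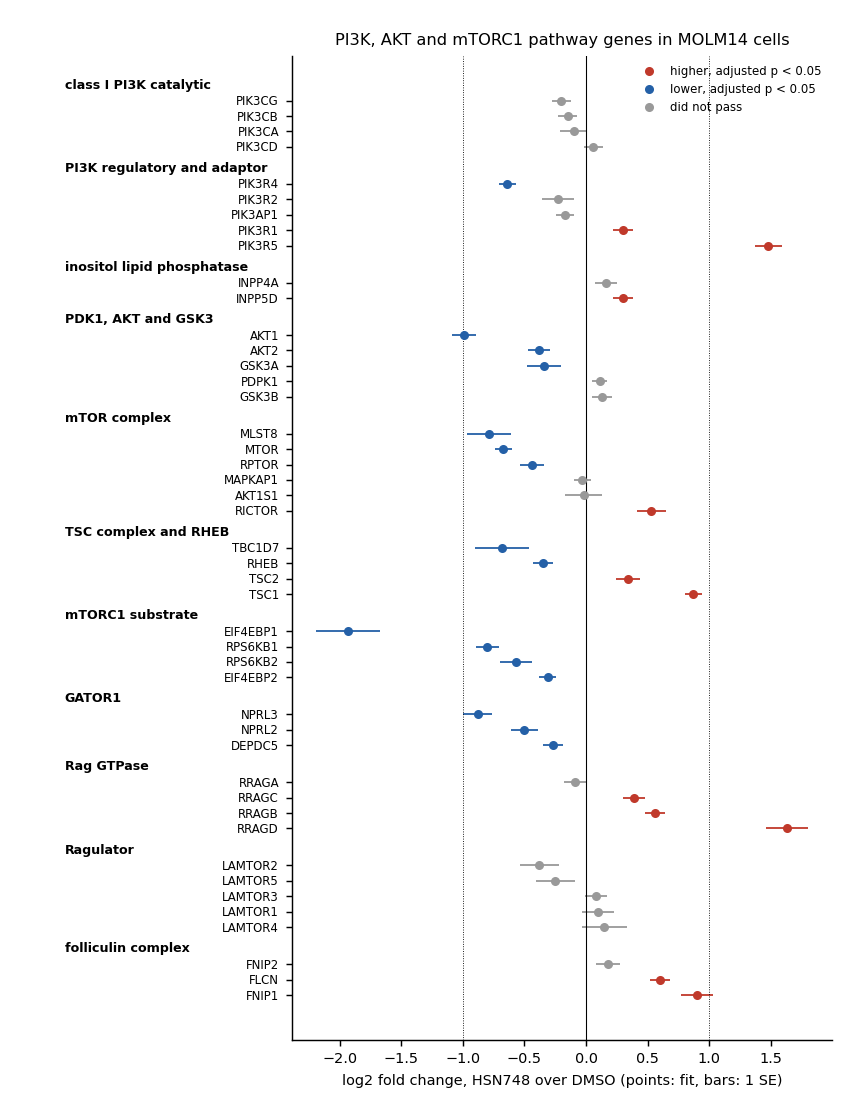
Log2 fold change of HSN748 over DMSO for each of the 45 members (horizontal axis, TMM scaling), ordered within role groups; points are the edgeR estimates from 3 cultures per group, bars are 1 SE, and dotted lines mark 1 and -1. EIF4EBP1 lies farthest to the left at -1.93 and RRAGD farthest to the right at 1.63; with 11 reference genes held constant, AKT2, GSK3A, RPTOR, RHEB, DEPDC5 and EIF4EBP2 turn to the right of zero.

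The kinases and the amino acid sensing genes differed in where their fold changes lay. None of the 12 kinases rose and 6 fell, with a median of -0.27, whereas 5 of the 15 amino acid sensing genes rose and 3 fell, with a median of 0.10. These counts, and those by class and role group below, stand beside 73.1% of all genes called under TMM, 36.6% higher and 36.5% lower. With the reference genes held constant both medians moved up, to 0.21 for kinases, of which 6 were then called higher and 2 lower, and to 0.59 for amino acid sensing genes. After the correction for gene length 9 of the 12 kinases were called lower, with a median of -0.29. The distance between the 2 medians, which a change of scaling hardly moves, was 0.37 and lay between 0.29 and 0.42 over the 16 alternatives to the fit. It is a description of 12 and 15 genes and carries no test.

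The other 2 classes were mixed. Of the 10 subunits and activators, 3 rose and 4 fell, with a median of -0.20 that turned to 0.28 with the reference genes. Of the 8 inhibitors, 3 rose and 3 fell, with a median of 0.07. The 3 genes of GATOR1 belong to the amino acid branch but act as inhibitors of it, and all 3 fell; with them among the inhibitors that class had 3 rising and 6 falling of 11 and a median of -0.27, and the amino acid sensing class without them had 5 rising and none falling of 12 and a median of 0.16.

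**Figure D2:**
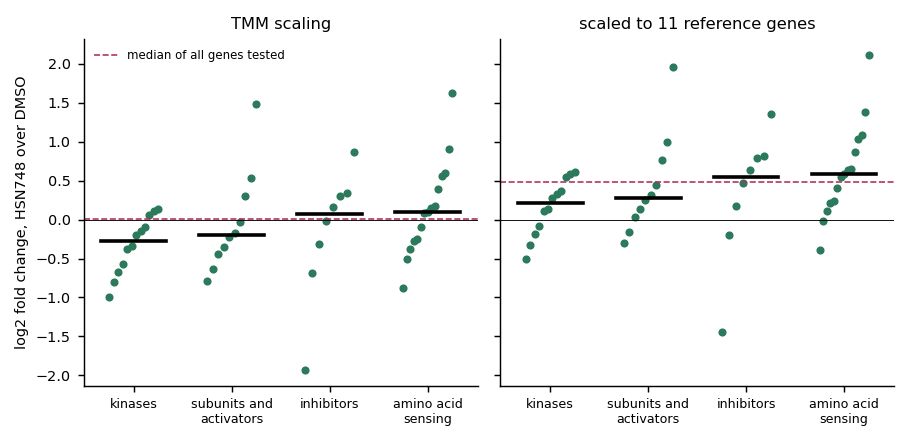
Log2 fold changes of the members by class under TMM scaling (left) and with 11 reference genes held constant (right); each point is 1 gene, black bars are class medians and the dashed line is the median of all genes tested. The kinase median lies below the dashed line in both panels, at -0.27 against 0.01 and at 0.21 against 0.48, and the amino acid sensing median lies above it in both, at 0.10 and 0.59. A change of scaling moves all genes by nearly the same amount, so the right panel repeats the order of the left. Without DMSO replicate 2 under TMM, the amino acid sensing median minus that of all genes was -0.01.

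The 4 class I catalytic subunits, which make the lipid signal, did not pass the test. PIK3CD, the leukocyte-enriched subunit, was at 149, 134 and 156 CPM in the DMSO cultures and 152, 147 and 159 in the HSN748 cultures. PIK3CB was at 116, 132 and 114 CPM and then 107, 116 and 104. PIK3CA, often mutated in solid tumors, was at 64.4, 74.5 and 54.2 CPM and then 58.8, 62.7 and 58.2. The groups overlapped in these 3 genes.

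PIK3CG, the subunit activated by G protein-coupled receptors, was at 95, 106 and 91.3 CPM with DMSO and 84.6, 80.8 and 89.5 with HSN748, with no overlap and a log2 fold change of -0.20 ± 0.08 (SE) at an adjusted p of 0.051. The 95% intervals of the 4 genes were -0.36 to 0.15 for PIK3CA, -0.34 to 0.03 for PIK3CB, -0.11 to 0.24 for PIK3CD and -0.38 to -0.01 for PIK3CG. Of the exon bases of PIK3CD, 3.38% overlap CLSTN1 on the opposite strand. None of these intervals reached past 0.38 on either side of zero under TMM. The calls of these genes depended on the processing. Without DMSO replicate 3, PIK3CA (-0.21, adjusted p = 0.045) and PIK3CG (-0.24, adjusted p = 0.018) were called lower. When the reference genes were held constant, 4 of 4 were called higher, and after correction for gene length, an alternative added after seeing the data, 3 of 4 were called lower, PIK3CA at -0.21, PIK3CB at -0.18 and PIK3CG at -0.25. The order of their levels was the same in both groups. With DMSO PIK3CD was at 26.1 ± 2.02 FPKM (SD, n = 3), PIK3CB at 18.3 ± 1.46, PIK3CG at 13.2 ± 1.04 and PIK3CA at 6.95 ± 1.1, and no neighbors in this order overlapped in either group.

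Among the regulatory subunits and adaptors the changes ran in both directions, with 2 rising, 1 falling and 2 not passing. PIK3R5 (chr17:8878916-8965712), which couples PIK3CG to G protein beta-gamma dimers, was at 10.7, 8.97 and 10.9 CPM with DMSO and 29, 26.1 and 29.8 with HSN748. The HSN748 cultures were all above the highest DMSO culture, a rise of 2.78-fold (log2 1.48 ± 0.11, adjusted p = 3.2e-06). PIK3R1, the main regulatory subunit of class IA enzymes, was at 113, 125 and 107 CPM and then 138, 146 and 140, a small rise without overlap (log2 0.30 ± 0.08, adjusted p = 0.0066).

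PIK3R4, the partner of the class III enzyme PIK3C3 in endosome traffic and autophagy, moved the other way, from 94.1, 97.9 and 91.7 CPM to 60, 61.4 and 60.6. The 3 cultures of each group lay close together and far from the other group (log2 -0.64 ± 0.07, adjusted p = 2.5e-05), but with the reference genes its value was -0.16 and did not pass (adjusted p = 0.16). PIK3R2 and the adaptor PIK3AP1 did not pass, at -0.23 and -0.17. PIK3R2 was called lower without DMSO replicate 2 (-0.35, adjusted p = 0.012), and PIK3AP1 without DMSO replicate 3 (-0.20, adjusted p = 0.043) or HSN748 replicate 9 (-0.21, adjusted p = 0.046), or after the length correction (-0.18, adjusted p = 0.03). PIK3AP1 was the most abundant of the 5 at 65.1 ± 2.88 FPKM with DMSO. Of the inositol lipid phosphatases, which remove the PI3K signal, INPP5D (SHIP1 in blood cells) was at 278, 265 and 300 CPM and then 341, 332 and 369. It rose without overlap (log2 0.30 ± 0.08, adjusted p = 0.0064), and the call was lost after correction for gene length (0.17, adjusted p = 0.12). INPP4A was at 61.3, 65.2 and 52.9 CPM and then 64.1, 69.6 and 66.6 with overlap, and its interval was -0.05 to 0.37; without DMSO replicate 2 it was called higher (0.22, adjusted p = 0.042).

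AKT1 (chr14:104769350-104795748) had the largest fall among the kinases, and the second isoform measured, AKT2, fell less. AKT1 was at 138, 116 and 144 CPM with DMSO and 62.1, 66.7 and 71.3 with HSN748. Every HSN748 culture was well below the lowest DMSO culture, a level 1.99-fold lower (log2 -0.99 ± 0.10, adjusted p = 2.0e-05). It stayed lower with the reference genes, at -0.51 (adjusted p = 0.001). AKT2, a major isoform of insulin responses, was at 175, 144 and 181 CPM and then 128, 127 and 130. It too was lower without overlap under TMM (log2 -0.38 ± 0.09, adjusted p = 0.0049), but its direction turned to 0.11 with the reference genes.

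Per length, the order of the 2 AKT genes changed between the groups. AKT1 was at 40.8 ± 4.56 FPKM and AKT2 at 31.8 ± 3.77 with DMSO, and 20.5 ± 1.4 and 24.5 ± 0.326 with HSN748. The order rests on the gene lengths given, 3253 bases for AKT1 and 5250 for AKT2, and before division by length AKT2 was above AKT1 in every culture. The change of their ratio between groups does not rest on these lengths. The log2 ratio of AKT1 to AKT2 within a culture, which needs no library scaling, was 0.35, 0.37 and 0.36 with DMSO and -0.36, -0.24 and -0.18 with HSN748. The ratio was thus above 1 in the 3 DMSO cultures and below 1 in the 3 HSN748 cultures, 1.28 against 0.836.

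PDPK1, which encodes the AKT activating kinase PDK1, was at 92.5 to 97.5 CPM with DMSO and 99.1 to 106 with HSN748, and its log2 fold change of 0.11 had an interval of -0.04 to 0.25. The GSK3 kinases, which AKT inhibits, had fold changes of opposite sign. GSK3A was at 62.5, 49.1 and 71.3 CPM and then 44.7, 45.7 and 53.6, the 1 called member whose groups overlapped (log2 -0.34 ± 0.14, adjusted p = 0.047), and it lost the call without DMSO replicate 1 (-0.33, adjusted p = 0.11), DMSO replicate 3 (-0.22, adjusted p = 0.11), HSN748 replicate 7 (-0.28, adjusted p = 0.18) or HSN748 replicate 8 (-0.29, adjusted p = 0.15). The call was also lost in voom (-0.33, adjusted p = 0.057), on log2 FPKM (-0.32, adjusted p = 0.073), with total counts (-0.22, adjusted p = 0.17) and with at least 10 CPM (-0.24, adjusted p = 0.15), and the value turned to 0.14 with the reference genes. GSK3B was at 90.7 to 108 CPM and 105 to 114 CPM, with an interval of -0.05 to 0.32. Of the 45 members, 7 have pseudogenes named after them in the annotation, EIF4EBP1, EIF4EBP2, LAMTOR3, LAMTOR5, PDPK1, PIK3CD and RHEB, and reads shared with such copies, PDPK2P in the case of PDPK1, make those values less certain. PDPK1 and GSK3B were both called higher with total counts, at 0.23 and 0.26, and GSK3B also without DMSO replicate 2 (0.20, adjusted p = 0.043).

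Of the 6 mTOR complex genes, 3 fell, 1 rose and 2 did not pass. mTORC1 and mTORC2 share the kinase MTOR and the stabilizing subunit MLST8, RPTOR is the substrate-binding subunit of mTORC1, and RICTOR and MAPKAP1 belong to mTORC2. MTOR was at 180, 169 and 183 CPM with DMSO and 109, 114 and 111 with HSN748, with the groups far apart (log2 -0.67 ± 0.07, adjusted p = 1.9e-05). RPTOR was at 62.3, 55.7 and 65.9 CPM and then 45.8, 40.5 and 48.7 (log2 -0.44 ± 0.10, adjusted p = 0.0028). MLST8 was at 37, 26.5 and 45.8 CPM and then 22.2, 18.9 and 22 (log2 -0.79 ± 0.18, adjusted p = 0.0036). The groups did not overlap in these 3 genes, although the DMSO cultures of MLST8 were spread widely.

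RICTOR rose where RPTOR fell. Its DMSO cultures were at 152, 180 and 125 CPM and its HSN748 cultures at 219, 234 and 205, above all DMSO cultures (log2 0.53 ± 0.12, adjusted p = 0.0041). MAPKAP1 did not pass, with an interval of -0.18 to 0.13, and neither did the mTORC1 inhibitor AKT1S1 (PRAS40), with an interval of -0.35 to 0.32. With the reference genes MTOR was at -0.19 (adjusted p = 0.083) and MLST8 at -0.30 (adjusted p = 0.087), RPTOR turned to 0.03, and RICTOR was still called higher. Of the exon bases of MLST8, 7.18% overlap BRICD5 on the opposite strand, and it is not known whether the counting used strand.

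The distance between RPTOR and RICTOR did not rest on that choice. The log2 ratio of RPTOR to RICTOR per length was -0.79, -1.20 and -0.44 with DMSO and -1.77, -2.04 and -1.59 with HSN748, a difference of -0.99. In FPKM, RICTOR went from 15.8 ± 2.82 with DMSO, below MAPKAP1 at 21.2 ± 0.357 and MTOR at 20.3 ± 0.84, to 22.8 ± 1.5 with HSN748, which overlapped MAPKAP1 at 20.9 ± 1.02. MTOR was at 12.8 ± 0.327 FPKM with HSN748, below both.

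The TSC complex, which keeps RHEB inactive, and RHEB itself were all called. TSC1 (chr9:132891349-132944616) was at 42.4, 40.9 and 38.5 CPM with DMSO and 75.6, 75 and 72.4 with HSN748, a rise of 1.83-fold with narrow spread in both groups (log2 0.87 ± 0.07, adjusted p = 6.5e-06). TSC2, the catalytic partner, rose less, from 53.9 to 67.4 CPM to 73.2 to 83.2 (log2 0.34 ± 0.10, adjusted p = 0.012), and 11.9% of its exon bases overlap PKD1 on the opposite strand. RHEB, the direct activator of mTORC1, was at 63.4, 61.9 and 64.3 CPM and then 53.2, 46.4 and 49.7. It was lower without overlap under TMM (log2 -0.35 ± 0.08, adjusted p = 0.003) and turned to 0.13 with the reference genes.

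TBC1D7, a small subunit of the TSC complex, went against TSC1 and TSC2. Its level was low, at 1.44, 1.58 and 1.87 CPM with DMSO and 0.84, 1.06 and 1.13 with HSN748, and the groups did not overlap (log2 -0.68 ± 0.22, adjusted p = 0.019). The call was lost without DMSO replicate 3 (-0.57, adjusted p = 0.065), without HSN748 replicate 7 (-0.55, adjusted p = 0.075), with upper-quartile factors (-0.47, adjusted p = 0.075) and with the reference genes (-0.20, adjusted p = 0.45). TBC1D7 shares 29.5% of its exon bases with a readthrough gene on the same strand, TBC1D7-LOC100130357, so reads could be assigned to either.

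The 4 members placed in the mTORC1 substrate group all fell under TMM, the S6 kinases as well as the repressors that hold EIF4E. The group does not hold every substrate, and AKT1S1, placed with the mTOR complex, did not pass (-0.02). EIF4EBP1 was at 61.7, 47.8 and 97.7 CPM with DMSO and 20.5, 13.9 and 19.9 with HSN748. The DMSO cultures differed by more than the HSN748 cultures did, but each was above all of the latter, and the level was 3.81-fold lower with HSN748 (log2 -1.93 ± 0.26, adjusted p = 1.5e-04). Without DMSO replicate 3, the highest culture, the log2 fold change was -1.60. EIF4EBP2, its paralog, was at 274, 285 and 264 CPM and then 215, 216 and 234, a smaller difference without overlap (log2 -0.31 ± 0.07, adjusted p = 0.0034) that turned to 0.17 with the reference genes.

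RPS6KB1, which encodes S6 kinase and is needed for cell growth, was at 103, 111 and 89.6 CPM with DMSO and 55.9, 61 and 57.4 with HSN748. The groups were well apart (log2 -0.80 ± 0.09, adjusted p = 5.0e-05), and the fall passed with the reference genes, at -0.32 (adjusted p = 0.037). RPS6KB2, the second S6 kinase, was at 44.1, 34.9 and 49.3 CPM and then 26.9, 28 and 31.7. It was lower without overlap (log2 -0.57 ± 0.13, adjusted p = 0.004), but with the reference genes its value was -0.08 (adjusted p = 0.55). EIF4EBP1 had the highest mean FPKM of the 45 members with DMSO, 83.5 ± 31.1 against 36.6 ± 1.4 for EIF4EBP2, but in DMSO replicate 2 it was at 57.8, below PIK3AP1 at 68.3. With HSN748 it was at 21.9 ± 4.42, below EIF4EBP2 at 29.6 ± 1.39.

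**Figure D3:**
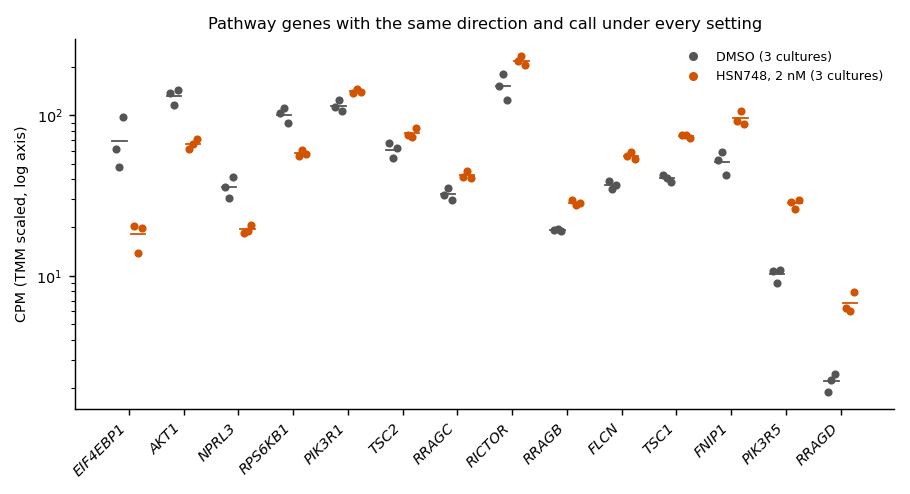
CPM (TMM scaled, log axis) in each DMSO and HSN748 culture for the 14 members that kept their direction and their side of the threshold in every alternative that gave them a value; points are cultures and bars are group means. The HSN748 points lie below the DMSO points for EIF4EBP1, AKT1, NPRL3 and RPS6KB1 and above them for the other 10 genes.

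In the amino acid branch, GATOR1, the Rag GTPases, Ragulator and the folliculin complex each showed a pattern of its own. GATOR1, the GTPase activating complex that turns off RRAGA and RRAGB, had all 3 genes lower. NPRL3 was at 35.7, 30.6 and 41.1 CPM with DMSO and 18.5, 19.1 and 20.7 with HSN748, with every treated culture below every control (log2 -0.88 ± 0.12, adjusted p = 1.5e-04). NPRL2 was at 25.2, 19.8 and 25.1 CPM and then 16.7, 15.8 and 17.2 (log2 -0.50 ± 0.11, adjusted p = 0.0034). DEPDC5, the largest subunit, was at 39.5, 40.8 and 43.1 CPM and then 35, 31.9 and 35.7 (log2 -0.27 ± 0.08, adjusted p = 0.016).

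These 3 falls differed in how firm they were. NPRL3 passed in every alternative, and at -0.39 with the reference genes, but 12.5% of its exon bases overlap MPG on the opposite strand. NPRL2 was at -0.02 with the reference genes (adjusted p = 0.9). DEPDC5 turned to 0.21 there and lost its call with total counts (-0.14, adjusted p = 0.13) and with at least 10 CPM (-0.17, adjusted p = 0.085). The call was also lost without HSN748 replicate 7 (-0.27, adjusted p = 0.053) and without HSN748 replicate 8 (-0.20, adjusted p = 0.095).

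The Rag GTPases work as pairs of RRAGA or RRAGB with RRAGC or RRAGD, and 3 of the 4 rose. RRAGD (chr6:89364616-89412273) was at 1.89, 2.24 and 2.45 CPM with DMSO and 6.28, 6.06 and 7.93 with HSN748. Although it was among the lowest members, its cultures were clearly separated and the level was 3.1-fold higher (log2 1.63 ± 0.17, adjusted p = 2.5e-05). RRAGB was at 19.4, 19.5 and 19.1 CPM and then 29.5, 27.8 and 28.4 (log2 0.56 ± 0.08, adjusted p = 1.8e-04). RRAGC was at 32, 35.1 and 29.5 CPM and then 41.2, 44.8 and 40.9 (log2 0.39 ± 0.09, adjusted p = 0.0038).

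RRAGA did not pass, at 20.7 to 24.7 CPM with DMSO and 21 to 22.1 with HSN748 and an interval of -0.30 to 0.12. The ratio of RRAGA to RRAGB went from 1.8 to 1.16 and that of RRAGC to RRAGD from 26.9 to 11.6. With DMSO, RRAGA was at 14.3 ± 1.25 FPKM, RRAGC at 12 ± 1.05, RRAGB at 7.89 ± 0.0836 and RRAGD at 0.446 ± 0.0577, and with HSN748 the values were 13.4 ± 0.345, 15.8 ± 0.815, 11.6 ± 0.348 and 1.37 ± 0.208. RRAGA and RRAGC overlapped with DMSO, and RRAGC was above RRAGA in all HSN748 cultures.

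Ragulator, the scaffold that holds the Rags on the lysosome, had no gene past the threshold in edgeR's quasi-likelihood test under TMM, and 1, LAMTOR2, in DESeq2. LAMTOR2 came nearest, at 35.1, 35 and 51.5 CPM with DMSO and 34.1, 28.1 and 31.3 with HSN748, without overlap (log2 -0.38 ± 0.16, adjusted p = 0.055). It was called lower by DESeq2 (-0.39, adjusted p = 0.029), with RLE factors (-0.39, adjusted p = 0.048), without DMSO replicate 1 (-0.47, adjusted p = 0.038) or replicate 2 (-0.47, adjusted p = 0.022) and after correction for gene length (-0.48, adjusted p = 3.9e-04). Without DMSO replicate 3 its value was -0.17, and with the reference genes it turned to 0.11. LAMTOR5 was at 40.7, 41.8 and 60.8 CPM and then 46.4, 37.8 and 36.3, and it was called lower after the length correction (-0.31, adjusted p = 0.014). LAMTOR4 was at 28.3, 23.8 and 40.4 CPM and then 37, 30.5 and 35.1. In these 3 short genes DMSO replicate 3 stood above the other DMSO cultures.

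LAMTOR1 and LAMTOR3 had log2 fold changes of 0.10 and 0.08. The intervals of LAMTOR1, LAMTOR3, LAMTOR4 and LAMTOR5 lay between -0.62 and 0.56, widest in LAMTOR4 and LAMTOR5 and narrowest in LAMTOR3, at -0.13 to 0.28. With the reference genes, 3 Ragulator genes, LAMTOR1, LAMTOR3 and LAMTOR4, were called higher, and without DMSO replicate 3 LAMTOR1 (0.24, adjusted p = 0.049) and LAMTOR4 (0.39, adjusted p = 0.0082) were. With DMSO the levels were 65.2 ± 15.3 FPKM for LAMTOR2, 56.3 ± 13.4 for LAMTOR5, 41.8 ± 11.6 for LAMTOR4 and 39.8 ± 6.79 for LAMTOR1, an order in which neighbors overlapped, and 10.4 ± 0.928 for LAMTOR3, which was below the others.

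The folliculin complex, which acts on RRAGC and RRAGD and is needed to keep TFEB and TFE3 in the cytoplasm of fed cells, had 2 genes that rose and 1 that did not pass. FNIP1 (chr5:131641714-131797017) was at 52.7, 59.1 and 42.4 CPM with DMSO and 92, 107 and 88.5 with HSN748, all treated cultures above all controls (log2 0.90 ± 0.13, adjusted p = 2.2e-04). FLCN was at 39.1, 34.9 and 36.9 CPM and then 56.1, 59.1 and 53.1, also without overlap (log2 0.60 ± 0.08, adjusted p = 1.5e-04). FNIP2, the alternative partner of FLCN, was at 26.1, 29.1 and 22.9 CPM and then 29.6, 31.2 and 27.7, with overlap and an interval of -0.06 to 0.42. It was called higher with total counts (0.30, adjusted p = 0.033), upper-quartile factors (0.39, adjusted p = 0.008) and the reference genes (0.65, adjusted p = 0.0011), and without DMSO replicate 2 (0.26, adjusted p = 0.035).

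Promoter sequences from RefSeq (GRCh38.p14), covering 250 bases before to 50 after the start of transcription, were matched for 40 of the 45 members. These 40 members had 56 promoters. The sequence CACGTG is the E-box core recognized by many basic helix-loop-helix factors. It was found in 7.26% of all 35116 promoters and in 8 of the 56 member promoters. These belong to 8 members, FNIP1, LAMTOR1, LAMTOR4, NPRL3, PIK3AP1, RRAGB, RRAGC and TSC2. The longer GTCACGTG (CACGTGAC on the other strand) contains CACGTG and is the form favored by the lysosomal gene regulators TFEB and TFE3. It was found on either strand in 2.4% of all promoters and in 5 of the 56 member promoters. These belong to 5 members, FNIP1, LAMTOR4, RRAGB, RRAGC and TSC2. The FOXO type site GTAAACA, read as TGTTTAC on the other strand, was found in 3.42% of all promoters and in 1 of the 56, of PIK3CA. The Rag and folliculin genes that hold GTCACGTG were picked for display because they rose together. TSC2 and LAMTOR4 also hold it and are not shown. FLCN rose and had no match to these motifs, and RRAGD rose and had no promoter matched. The windows shown read 5′ to 3′ on the strand of the gene and have the motif in capitals. In RRAGC and FNIP1 it reads CACGTGAC, so GTCACGTG lies on the opposite strand there. They lie at chr1:38859837-38859924 (minus strand) for RRAGC, chr5:131797145-131797232 (minus strand) for FNIP1 and chrX:55717682-55717738 (plus strand) for RRAGB, where the motif occurs on both strands and overlaps itself.
RRAGC: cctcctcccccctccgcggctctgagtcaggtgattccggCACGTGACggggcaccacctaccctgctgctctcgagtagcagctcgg
FNIP1: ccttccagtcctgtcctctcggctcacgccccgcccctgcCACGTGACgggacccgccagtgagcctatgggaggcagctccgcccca
RRAGB: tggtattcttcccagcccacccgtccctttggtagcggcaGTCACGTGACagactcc
A match is a description of the letters in these windows. Of the 5 members with GTCACGTG, FNIP1, RRAGB, RRAGC and TSC2 were called higher under TMM and LAMTOR4 did not pass (0.15). Of the members with CACGTG but not GTCACGTG, NPRL3 fell, and LAMTOR1 and PIK3AP1 did not pass. A link between motif and change was not tested.

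Ratios between related members were then taken within each culture, from counts per kilobase, because library scaling cancels from them. The dependence of the DMSO cultures on gene length does not cancel where the 2 genes differ in length. EIF4EBP1, for example, has 827 bases and EIF4EBP2 has 7491. The part of length in the ratios was not tested. In 10 of 13 pairs the ratio did not overlap between groups, where 75.4% of all single genes did not overlap in CPM. The share among other pairs of genes was not computed, and the pairs were chosen with earlier results known. The exact permutation test of 3 against 3 cultures cannot go below a two-sided p of 0.1, which these 10 pairs reached, and after adjustment over the 13 pairs the smallest value was 0.13. The separation is therefore described by its size. The 3 pairs that differed by more than 1 on the log2 scale were EIF4EBP1 to EIF4EBP2, RRAGC to RRAGD and PIK3R1 to PIK3R5.

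The ratio of EIF4EBP1 to EIF4EBP2 was 1.03, 0.60 and 1.75 on the log2 scale with DMSO and -0.21, -0.78 and -0.38 with HSN748, a difference of -1.58. EIF4EBP1 was thus the more abundant transcript per length in every DMSO culture and the less abundant in every HSN748 culture. The ratio of RRAGC to RRAGD was 4.95, 4.84 and 4.46 with DMSO and 3.59, 3.76 and 3.24 with HSN748, a difference of -1.22, and RRAGC remained the more abundant in all 6 cultures. The ratio of PIK3R1 to PIK3R5 was 2.70, 3.09 and 2.59 and then 1.54, 1.78 and 1.53, a difference of -1.18.

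Smaller shifts without overlap were found for FNIP1 to FNIP2 (0.72), RRAGA to RRAGB (-0.64), AKT1 to AKT2 (-0.62), TSC1 to TSC2 (0.53), FLCN to FNIP2 (0.42) and PIK3CD to PIK3CG (0.26), beside RPTOR to RICTOR above. Without DMSO replicate 2 the difference of PIK3CD to PIK3CG was 0.13. The other pairs overlapped, with differences of -0.47 for GSK3A to GSK3B, -0.24 for RPS6KB1 to RPS6KB2 and 0.06 for PIK3CA to PIK3CB. In PIK3CA to PIK3CB the sign turned without DMSO replicate 3, to -0.02.

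**Figure D4:**
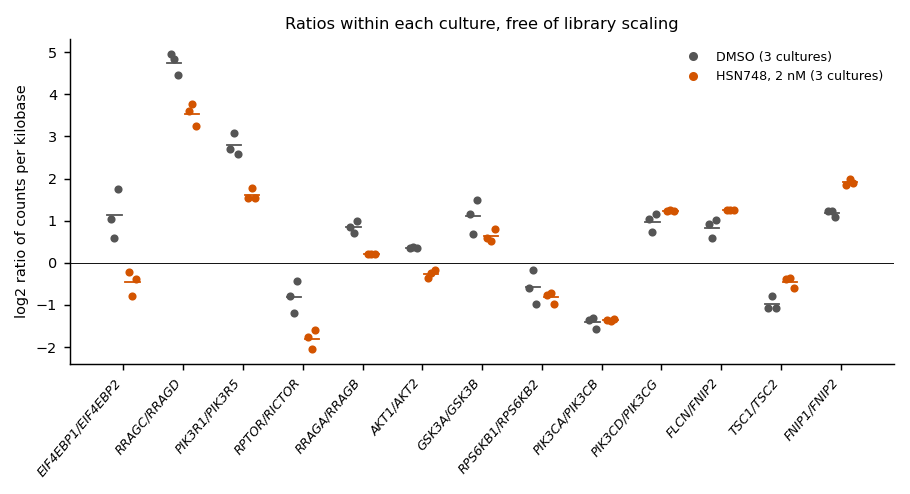
Log2 ratio of counts per kilobase for 13 pairs of related members in each culture; points are the 3 DMSO and the 3 HSN748 cultures and bars are group means. Points of EIF4EBP1 over EIF4EBP2 and AKT1 over AKT2 lie above 0 with DMSO and below 0 with HSN748, and GSK3A over GSK3B, RPS6KB1 over RPS6KB2 and PIK3CA over PIK3CB overlap between groups.

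Further genes of the pathway, taken from lists chosen with earlier results of these data known, were measured beside the members. The counts called in each list stand beside 73.1% of all genes tested, 36.6% higher and 36.5% lower under TMM. GATOR2, which opposes GATOR1, and KICSTOR, which anchors GATOR1 to the lysosome, had 6 genes lower, 1 higher and 1 not passing of the 8 examined, with a median of -0.48. SEH1L, a subunit of GATOR2 and of the nuclear pore, was at 226, 253 and 207 CPM with DMSO and 74.4, 75.9 and 69.2 with HSN748 (log2 -1.64 ± 0.09, adjusted p = 5.3e-07). SEC13, shared by GATOR2, the nuclear pore and the COPII coat, had a log2 fold change of -0.89 and MIOS one of -0.54. WDR59 of GATOR2 rose, at 0.56. When the reference genes were held constant 2 of the 8 were lower and 2 higher, and the median was -0.01.

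The sensors that report amino acids or their products to the Rags had 6 genes higher and 2 lower of 8, with a median of 0.62. The arginine sensor gene CASTOR2 rose, from 3.56, 3.75 and 3.75 CPM with DMSO to 8.61, 10.5 and 9.85 with HSN748 (log2 1.39 ± 0.12, adjusted p = 9.4e-06). The second arginine sensor gene, CASTOR1, was near the limit of detection at 0.208, 0.0472 and 0.0276 CPM and then 1.49, 0.956 and 1.29. It is counted among the 6, but it passed the filter on low counts only through its HSN748 cultures. Its call is therefore no independent test of a rise. BMT2 (SAMTOR), a sensor of S-adenosylmethionine, rose by 1.20 on the log2 scale. LARS1, the leucyl tRNA synthetase and a proposed leucine sensor, fell by 1.21, and the leucine sensor SESN2 fell by 0.49, a call that was lost with upper-quartile factors and with the reference genes (-0.01).

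The partners and assembly factors of mTOR had 5 genes lower and 1 higher of 6, with a median of -0.67. The exception was DEPTOR, an inhibitor of both complexes, at 1.06, 1.39 and 1.41 CPM with DMSO and 11, 9.78 and 10.4 with HSN748 (log2 3.03 ± 0.15, adjusted p = 3.1e-07). TTI1 and TELO2, which help fold and assemble mTOR and related kinases, had log2 fold changes of -1.28 and -0.83, and the mTORC2 subunit PRR5L one of -1.94 at no more than 2.84 CPM. Still 3 of the 6 were called lower with the reference genes.

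Among 13 other PI3K enzymes, adaptors and phosphatases, 8 rose and 2 fell, with a median of 0.31. PIK3IP1, a membrane protein that inhibits PI3K, was at 2.43, 2.76 and 2.18 CPM with DMSO and 19.6, 18.3 and 19.6 with HSN748 (log2 2.96 ± 0.12, adjusted p = 1.1e-07). The scaffold genes GAB2 and GAB3, whose products recruit PI3K to receptors, rose by 1.59 and 1.86. The lipid phosphatase genes INPP4B and INPP5E went the other way, INPP4B from 19, 20.2 and 15.7 CPM to 3.76, 3.99 and 3.25 (log2 -2.33 ± 0.14, adjusted p = 8.6e-07). INPP5E was at -0.36, a call that was lost without DMSO replicate 1 (-0.26), HSN748 replicate 7 (-0.33) or HSN748 replicate 8 (-0.34). The call was also lost with upper-quartile factors (-0.16), total counts (-0.24) and at least 10 CPM (-0.26), and the value turned to 0.12 with the reference genes.

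Of 5 other AKT family kinases and AKT phosphatases, 2 rose and 2 fell. SGK1, a kinase related to AKT and activated by mTORC2, was at 5.45, 5.1 and 5.32 CPM and then 25.2, 24.9 and 24.3 (log2 2.23 ± 0.09, adjusted p = 1.1e-07), and SGK3 was under 1 CPM in all cultures, at a log2 fold change of -1.25. The AKT phosphatase genes diverged, PHLPP1 at 0.66 and PHLPP2 at -1.36. The call of SGK3 was lost with upper-quartile factors, at -1.05, with the reference genes, at -0.78, and without DMSO replicate 1 (-1.12), HSN748 replicate 8 (-1.16) or HSN748 replicate 9 (-0.89).

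Of 12 further effectors of mTORC1, 6 rose and 4 fell. The translation factors EIF4E and EIF4G1 and the mRNA-binding protein gene LARP1 fell, LARP1 from 748, 740 and 736 CPM to 311, 322 and 336 (log2 -1.20 ± 0.07, adjusted p = 7.7e-07). EIF4B had a log2 fold change of -0.33 that lost its call with upper-quartile factors (-0.13) and turned to 0.15 with the reference genes. TFE3, a transcription factor of lysosomal genes that mTORC1 keeps in the cytoplasm, rose from 16.8, 16 and 18.5 CPM to 43.4, 45.5 and 46.6 (log2 1.40 ± 0.09, adjusted p = 1.1e-06). These are transcript levels, and phosphorylation and protein levels of the pathway were not analysed here.

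**Figure D5:**
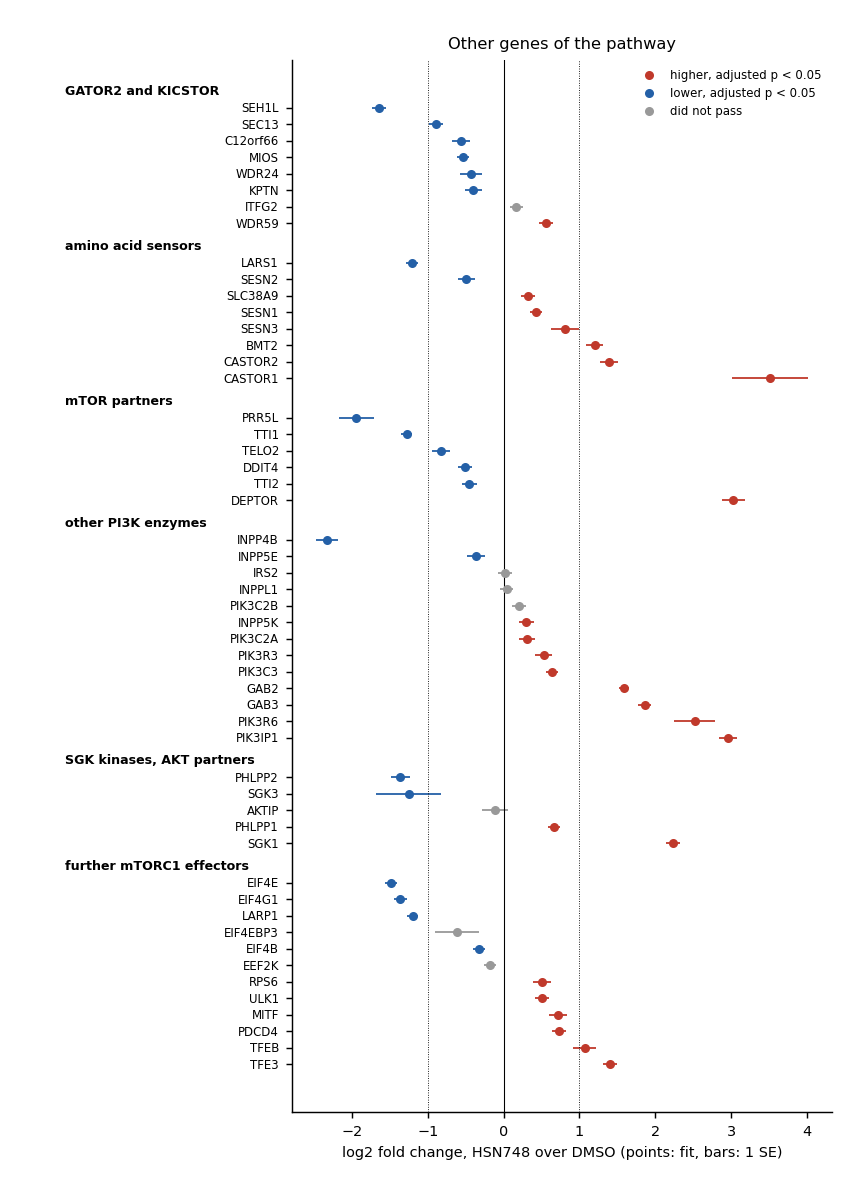
Log2 fold change of HSN748 over DMSO (horizontal axis, TMM scaling) for the other pathway genes by list; points are edgeR estimates from 3 cultures per group, bars are 1 SE and dotted lines mark 1 and -1. CASTOR1 at 3.51, DEPTOR at 3.03, PIK3IP1 at 2.96, PIK3R6 at 2.52 and SGK1 at 2.23 lie farthest to the right and INPP4B at -2.33 far to the left. The value of CASTOR1 comes from very low counts, and it passed the filter only through its HSN748 cultures. With 11 reference genes held constant, WDR24, KPTN, TTI2, INPP5E and EIF4B turn to the right of zero.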

How the data were processed

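RNA-Seq was performed on 6 MOLM14 cultures, 3 with DMSO and 3 with 2 nM HSN748 for 24 hours. RNA was extracted with TRIzol and libraries were made with a low input kit from New England Biolabs. According to the submitters' processing notes, bcl2fastq and STAR were used; the aligner settings, counter, strand setting and genome build were not given in the sources used here. Of 45 members, 42 start or end at the same base as in RefSeq GRCh38.p14.

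The deposited table holds raw read counts per gene made by the authors, gene length in bases, the authors' log2 values and their own comparison (fold changes and p-values); only the counts, positions and lengths were used. Genes were filtered with filterByExpr (160 removed), scaled by TMM and tested with edgeR's quasi-likelihood test (edgeR 4.0.16, R 4.3.3) by treatment, with Benjamini-Hochberg adjustment and a threshold of 0.05. The code was tested on simulated data. The biological coefficient of variation was 11.2%. No libraries agreed within sampling noise (lowest chi-square per degree of freedom 22.3). FPKM was computed from the scaled counts and the lengths. Ratios added 0.5 to each count. Log2 fold change intervals are 95%.

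Members, lists and tests were chosen with earlier results of these data known. Values per culture are given for members beyond a log2 fold change of 1, the 3 largest changes in each role group, members of pairs whose ratio differed by over 1, and AKT1, MTOR and RPS6KB1; PIK3CD, TSC2, RICTOR, and others given beside them were added for their role. Of each list, up to 4 genes with the smallest adjusted p and those called against its majority are named; 1 gene of these lists is not reported here. Alternatives were DESeq2 1.42.0, limma 3.58.1 (voom, and log2 FPKM with a pseudocount of 1), RLE, upper-quartile, total count and reference gene scaling, no filter, at least 10 CPM in 3 samples, 2 added to each count for ratios, leaving out each culture, and a correction for gene length that was added after seeing the data.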

Additional observations from a re-analysis of the deposited data

How the results depend on the processing

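Of 718 values of members under 16 alternatives, 607 kept direction and call, 28 lost the call, 42 gained it and 41 turned, 6 of the latter for called members, all with the reference genes. With upper-quartile factors 18 members were higher, 9 lower and 4 higher beyond 1, and the medians of kinases, subunits, inhibitors and amino acid sensing genes were -0.07, 0.00, 0.28 and 0.31. With the reference genes they were 26, 4, 7, 0.21, 0.28, 0.55 and 0.59. With total counts the medians were -0.15, -0.08, 0.20 and 0.23, and with at least 10 CPM, where TBC1D7 and RRAGD gave no value, -0.17, -0.10 and 0.26 for the former 3. On log2 FPKM 1 member was higher beyond 1. After the length correction the inhibitor median was 0.02.

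Members turned with the reference genes were AKT2 (0.11), PIK3CA (0.37), PIK3CB (0.33), PIK3CG (0.28), PIK3R2 (0.25), PIK3AP1 (0.31), RPTOR (0.03), MAPKAP1 (0.45), AKT1S1 (0.47), RHEB (0.13), DEPDC5 (0.21), RRAGA (0.40), LAMTOR2 (0.11), LAMTOR5 (0.24), EIF4EBP2 (0.17) and GSK3A (0.14). With upper-quartile factors they were PIK3CA (0.10), PIK3CB (0.06), PIK3CG (0.01), PIK3AP1 (0.04), MAPKAP1 (0.18), AKT1S1 (0.19) and RRAGA (0.12). With total counts they were PIK3CA (0.02), MAPKAP1 (0.10), AKT1S1 (0.11) and RRAGA (0.04), and with at least 10 CPM MAPKAP1 (0.07), AKT1S1 (0.08) and RRAGA (0.01). AKT1S1 was at 0.02 after the length correction and at 0.00 in voom and on log2 FPKM. Under the scalings, the shift of zero is part of their construction; for the other changes the cause was not tested.

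Leaving out each culture gave 11 to 14 members higher, 13 to 18 lower, 2 to 3 higher beyond 1 and 1 to 2 lower beyond 1, the second being AKT1 without DMSO replicate 2 (-1.08) or HSN748 replicate 9 (-1.03). The class medians ranged from -0.30 to -0.23, -0.26 to -0.15, 0.02 to 0.11 and 0.00 to 0.15. Signs turned for PIK3CA (-0.21 to 0.01), MAPKAP1 (-0.06 to 0.01), AKT1S1 (-0.17 to 0.09), LAMTOR1 (0.00 to 0.24), LAMTOR4 (0.00 to 0.39) and the ratio of PIK3CA to PIK3CB (-0.02 to 0.10). No paired analysis was possible because the groups share no replicate number. With 3 cultures a group, intervals of members that did not pass reached from -0.73 to 0.56.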
